A study of Mus musculus with 6 samples.

Results

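Endothelial identity genes are the receptors, junction proteins, transport and clotting factors and transcription factors by which the cells that line blood and lymph vessels are recognised. A set of 35 such genes was chosen by name, with earlier results of these data known. All 35 were found among the 18193 genes that the probe sets of the array name. Each gene was read by its brightest probe set, the one with the highest mean log2 value over all arrays, and other probe sets are reported beside it. For Egfl7, Podxl and Clec14a another probe set had the higher mean linear intensity. The values come from 3 samples of juxtaglomerular (JG) cells and 3 samples of renal mesenchymal stromal cells (MSC), all of the C57BL6 strain with the Ren1c YFP reporter genotype, and all adult. The JG cells were isolated by flow sorting for yellow fluorescent protein, which the reporter ties to the renin gene Ren1c. The MSC were flow sorted by CD44 and then expanded in culture until confluent. The label field for growth gives serum-containing medium for every sample, JG included, so whether the JG cells were cultured is not settled by the labels. The labels do not say whether samples of a group were separate animals, pools or cultures, and p-values therefore measure the spread between these samples. Nor do they say whether the reporter marks present or past renin expression.

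In the vessel wall, growth factors act on receptor tyrosine kinases of the endothelium. The Vegf ligands act on Kdr, Flt1 and Flt4, and the angiopoietins act on Tek (also called Tie2) with its partner Tie1. Cadherin 5 and other adhesion proteins hold the cells together, and factors of the ETS family, such as Erg, Fli1 and Ets1, drive much of the endothelial transcription programme. JG cells sit in the wall of the afferent arteriole, directly beside endothelium and close to the glomerular capillaries.

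The RefSeq promoter table for GRCm38.p6, which gives 250 bases before to 50 bases after a gene start, matched 16 of the 35 genes with 23 windows. Among the genes that passed the test below, Tek, Emcn and Robo4 had a window. Their windows are printed because all 3 genes were higher in JG and because the ETS factors of the set were themselves measured. Capitals mark the ETS-type hexamers AGGAAG and CGGAAG and the GATA-type hexamer AGATAA, on either strand. Each window is written 5′ to 3′ on the strand of the gene, which is the plus strand for all 3. The Tek window is chr4:94739039-94739338, the Emcn window is chr3:137340828-137341127 and the Robo4 window is chr9:37401722-37402021.
Tek: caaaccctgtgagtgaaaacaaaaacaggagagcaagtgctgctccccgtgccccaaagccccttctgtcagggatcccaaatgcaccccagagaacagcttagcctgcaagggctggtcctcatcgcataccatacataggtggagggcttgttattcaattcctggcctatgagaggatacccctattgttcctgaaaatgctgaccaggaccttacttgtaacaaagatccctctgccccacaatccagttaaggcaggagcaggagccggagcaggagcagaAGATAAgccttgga
Emcn: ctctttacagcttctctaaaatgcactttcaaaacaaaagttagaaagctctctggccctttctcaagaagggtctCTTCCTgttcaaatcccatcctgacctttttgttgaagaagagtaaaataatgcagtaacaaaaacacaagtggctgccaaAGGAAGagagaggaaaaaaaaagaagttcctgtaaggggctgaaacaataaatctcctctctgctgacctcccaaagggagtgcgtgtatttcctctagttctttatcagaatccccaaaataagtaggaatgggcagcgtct
Robo4: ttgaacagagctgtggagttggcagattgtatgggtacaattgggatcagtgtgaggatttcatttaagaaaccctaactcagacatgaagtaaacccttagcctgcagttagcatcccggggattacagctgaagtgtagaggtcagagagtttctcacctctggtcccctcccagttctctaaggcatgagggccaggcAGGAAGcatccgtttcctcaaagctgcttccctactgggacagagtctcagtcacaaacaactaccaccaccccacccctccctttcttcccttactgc
The Tek window held 1 AGATAA, starting at base 37 after the gene start, and neither ETS-type hexamer. Emcn held AGGAAG once on each strand, starting at bases -174 and -93, and Robo4 held it once, at base -49. Over the whole table, 46.5% of 32851 windows of this length held AGGAAG or CGGAAG on either strand, against 43.5% of the windows of these genes (10 of 23). AGATAA stood in 11.2% of all windows and in 3 of the 23. A match is a string of letters and not a shown binding site.

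The JG samples gave higher signals than the MSC samples for part of the endothelial set, with the largest differences for Tek and Cd93. Differences are JG minus MSC after adding 16 to each intensity and taking log2 (± SE), tested with limma with adjustment over all 18193 genes, and a gene with an adjusted p under 0.05 is said to have passed. On this test 8 of the 35 genes were higher in JG (22.9%, where 7.70% of all genes were), and 1, Ets1, was higher in MSC (7.63% of all genes were). The 8 were Tek, Cd93, Esam, Lmo2, Cdh5, Aplnr, Emcn and Robo4, with differences from 1.47 to 4.17, and the other 26 did not pass. For 7 of the 8, every MSC value lay under the added constant of 16, so the size of the difference depends on that constant. Of the 35, 26 had a difference above 0 and 9 below, where 53.8% of all genes were above 0. The median difference of the 35 genes was 0.70, beside 0.07 over all genes. It was 1.46 beside 0.10 with an added constant of 1, 0.37 beside 0.03 with 64, and -0.27 beside -0.30 in the 10 of the 35 genes that remained when genes under the median intensity were left out. The JG samples all lay above the MSC samples for 21 genes (60.0%, beside 20.2% of all genes) and all below for 2 (5.7%, beside 18.5%), so 23 separated the groups in either direction, where 38.7% of all genes did, and 12 overlapped. The set was chosen with earlier results of these data known, so its shares beside those of all genes are a description. These are sorted bulk samples, the groups were sorted in different ways, and the MSC were expanded in culture. A larger share of endothelial cells, more of these transcripts per cell, other cells with these transcripts and such handling cannot be told apart.

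**Figure D1:**
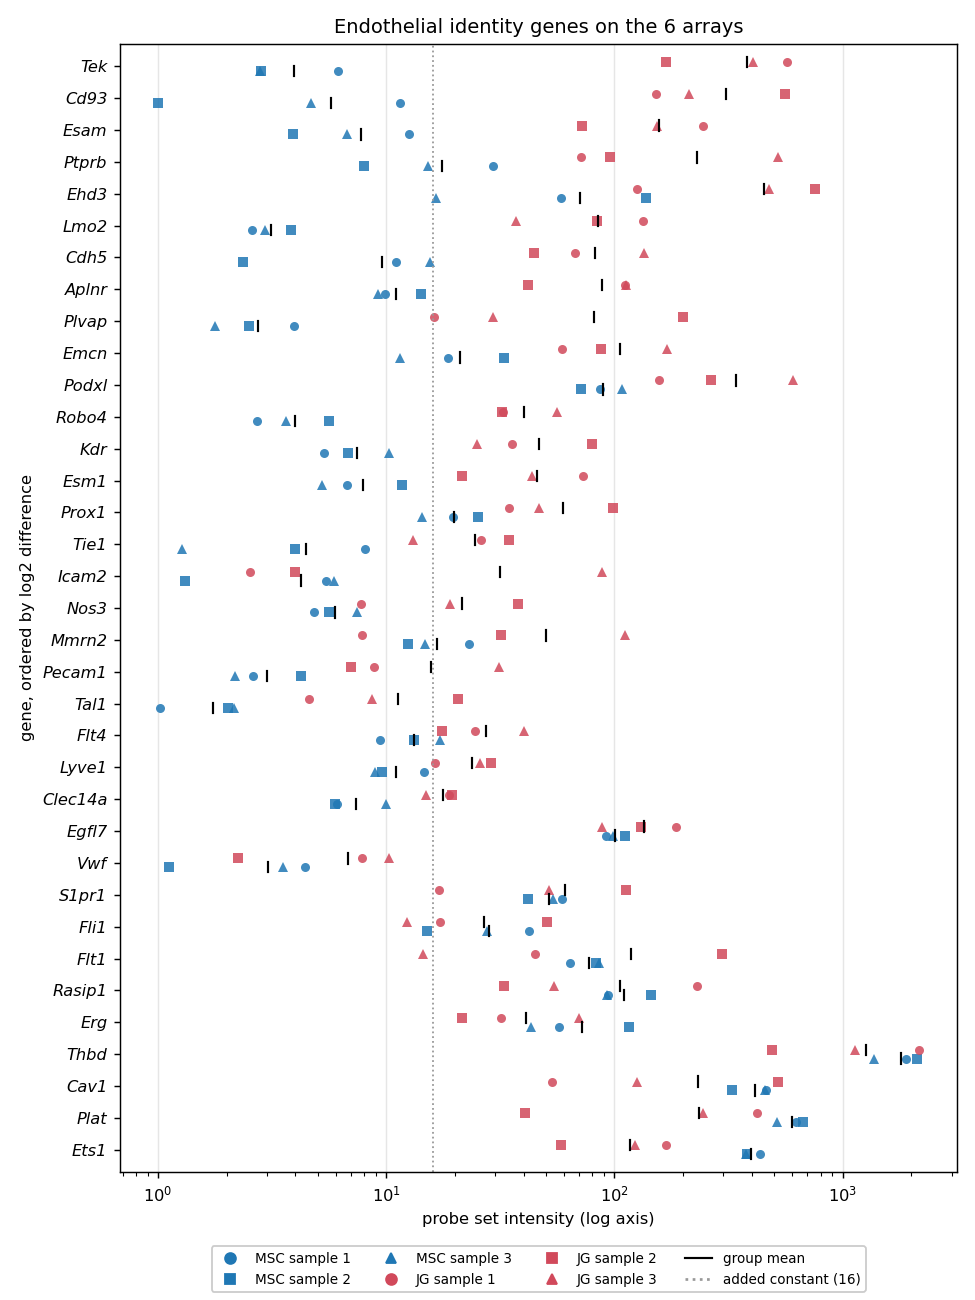
Probe set intensity (log axis) of the 35 genes in each of the 3 MSC and 3 JG samples, ordered by the log2 difference, with a black tick at each group mean and a dotted line at the added constant of 16. Tek and Cd93 show the widest gaps at the top, and Ets1 and Plat at the bottom lie higher in MSC.

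The counts depended on single samples. Dropping MSC sample 1, 2 or 3 left 3, 2 or 2 genes higher in JG and 0 higher in MSC. Dropping JG sample 1 gave 14 and 2, dropping JG sample 2 gave 10 and 2, and dropping JG sample 3 gave 5 and 0. Counts over all genes moved too: the 1401 higher in JG became 719, 719 and 728 with MSC samples 1, 2 and 3 dropped and 2551, 1540 and 986 with JG samples 1, 2 and 3 dropped. Tek and Cd93 passed whichever sample was left out, and the other 7 genes did not. JG sample 1 correlated most with the MSC arrays (0.806 to 0.814 across genes). The median standard deviation of these genes on the log2 scale was 0.67 among the JG samples and 0.19 among the MSC samples, beside 0.54 and 0.26 for all genes.

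Among the receptors, Tek and Aplnr passed. Tek, the angiopoietin receptor, was at 572, 168 and 404 in JG samples 1 to 3 and at 6.16, 2.82 and 2.81 in MSC samples 1 to 3 (difference 4.17 ± 0.45, adjusted p = 0.00214). The lowest JG sample stood far above the highest MSC sample, and the MSC values lie under the added constant, so the size of the difference moves with it: 6.17 with a constant of 1 and 2.59 with 64, both past the threshold. With 1 sample left out, its adjusted p stayed at or below 0.0179. Aplnr, the apelin receptor of endothelium, was at 112, 41.6 and 113 in JG and at 9.83, 14.2 and 9.24 in MSC (1.86 ± 0.37, adjusted p = 0.0212). JG sample 2 was lower than the other two, the groups did not overlap, and its second probe set showed 0.58 and did not pass (adjusted p = 0.353 over all probe sets). Aplnr missed the threshold when MSC samples 1, 2 and 3 were dropped singly (adjusted p = 0.0867, 0.0776 and 0.0931) and when JG sample 3 was (0.0632).

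Tie1, the partner of Tek, was at 25.9, 34.4 and 13.2 in JG and at 8.05, 3.98 and 1.28 in MSC (0.96 ± 0.29, adjusted p = 0.0764). The groups did not overlap and the order of the JG samples was not that of Tek: JG sample 2, the lowest for Tek, was the highest for Tie1. Ptprb, the endothelial phosphatase that acts on Tek, was at 71.5, 95.7 and 522 in JG and at 29.5, 7.99 and 15.2 in MSC (2.42 ± 0.71, adjusted p = 0.0686). JG sample 3 carried most of its mean, although the other JG samples also lay above every MSC sample. A second Ptprb probe set gave 2.22 (adjusted p = 0.0760), and the third, at most 8.47 on any array, gave -0.23. Without JG sample 1 Ptprb passed (2.92, adjusted p = 0.0322).

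The Vegf receptors did not pass. Kdr, the main Vegf signalling receptor, was at 35.4, 79.8 and 25.0 in JG and at 5.34, 6.77 and 10.3 in MSC (1.33 ± 0.36, adjusted p = 0.0550). Every JG sample exceeded every MSC sample, with JG sample 2 the highest, and without that sample it passed (0.97, adjusted p = 0.0497). Flt1, which also binds Vegf and exists in a soluble decoy form, was at 44.7, 297 and 14.5 in JG and at 63.8, 83.0 and 85.4 in MSC (-0.16 ± 0.82, adjusted p = 0.915). JG sample 2 lay above and the other JG samples below all MSC samples. The 4 Flt1 probe sets gave -0.94, -0.16, -0.05 and 0.10, none of which passed, and the sign of the first-choice probe set turned without JG sample 1 (0.07) or JG sample 3 (0.57). Flt4, the lymphatic Vegf receptor, was at 24.5, 17.6 and 40.2 in JG and at 9.35, 13.2 and 17.2 in MSC (0.55 ± 0.28, adjusted p = 0.234), and its dimmer probe set gave -0.06. S1pr1, the sphingosine phosphate receptor, was at 17.1, 112 and 51.9 in JG and at 58.8, 41.8 and 54.0 in MSC (-0.02 ± 0.50, adjusted p = 0.979), with overlapping groups.

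**Figure D2:**
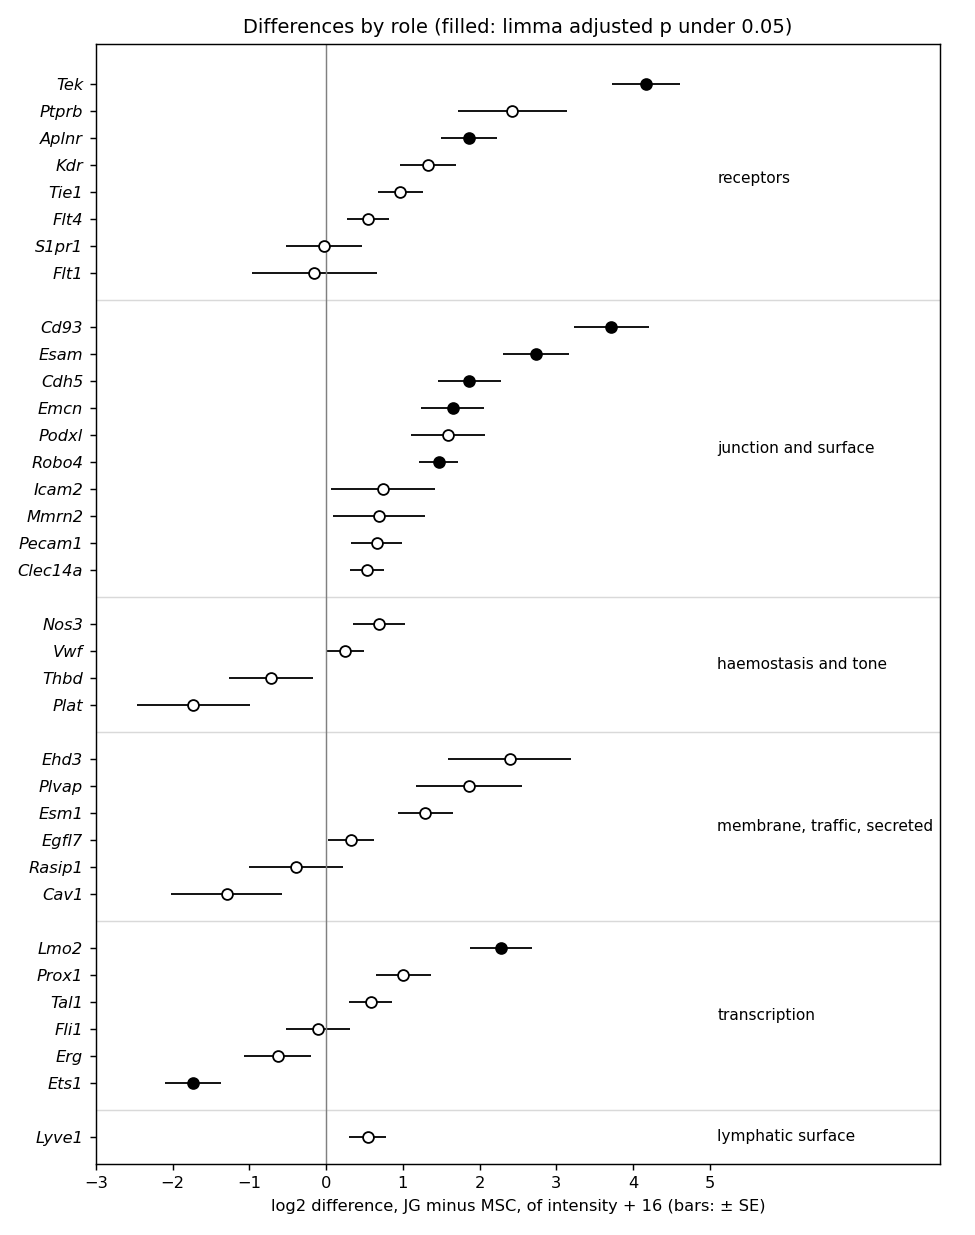
Log2 difference, JG minus MSC, of each gene with its standard error, grouped by role, with filled points for an adjusted p under 0.05. All 10 junction and surface genes lie to the right of 0, while the transcription group spans from Ets1 at -1.73 to Lmo2 at 2.28.

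All 10 junction and surface genes had a difference above 0, where 53.8% of all genes did. In 8 of them all JG samples were above all MSC samples (20.2% of all genes) and 5 passed (7.70% of all genes). Cd93, a surface glycoprotein of endothelium and some leukocytes, was at 152, 556 and 213 in JG and at 11.5, 1.00 and 4.68 in MSC (3.72 ± 0.49, adjusted p = 0.00498). Its groups stood well apart, and its adjusted p was at most 0.0327 with 1 sample left out. Of its 5 probe sets a second passed (2.13, adjusted p = 0.00553), 1 gave 1.46 (adjusted p = 0.0566), 1 gave 1.39 (adjusted p = 0.192) and 1, at most 7.69 on any array, gave 0.15. Esam, an adhesion molecule of endothelial tight junctions and platelets, was at 243, 71.8 and 153 in JG and at 12.6, 3.92 and 6.75 in MSC (2.74 ± 0.43, adjusted p = 0.00945). It followed the JG order of Tek, with sample 1 highest and sample 2 lowest. The adjusted p of Esam was 0.0521 without MSC sample 2 and 0.0505 without MSC sample 3.

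Cdh5, the cadherin of endothelial adherens junctions, was at 66.9, 44.6 and 135 in JG and at 11, 2.35 and 15.5 in MSC (1.87 ± 0.41, adjusted p = 0.0293). The groups did not overlap, and its other probe set, at 26.1, 7.22 and 94.8 in JG, gave 0.74 and did not pass (adjusted p = 0.442). Cdh5 missed the threshold with any MSC sample dropped (adjusted p = 0.0961, 0.115 and 0.0800 for samples 1, 2 and 3) and with JG sample 3 dropped (0.0564). Emcn, the sialomucin endomucin of veins and capillaries, was at 59.1, 87.4 and 170 in JG and at 18.7, 32.8 and 11.5 in MSC (1.65 ± 0.41, adjusted p = 0.0429). All JG samples were above all MSC samples, sample 3 the most. It passed only with all 6 samples or with JG sample 1 dropped, and its adjusted p was 0.139, 0.0880 and 0.160 when MSC samples 1, 2 and 3 were dropped and 0.0716 and 0.0826 when JG samples 2 and 3 were. Robo4, the endothelial roundabout receptor that stabilises vessels, was at 32.5, 32.1 and 55.9 in JG and at 2.72, 5.63 and 3.63 in MSC (1.47 ± 0.26, adjusted p = 0.0139). Its highest and lowest JG samples lay closer together in ratio than those of the other genes higher in JG. Its adjusted p was 0.0682, 0.0597 and 0.0691 without MSC samples 1, 2 and 3.

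Podxl, a sialomucin of glomerular podocytes as well as endothelium, was at 157, 265 and 605 in JG and at 86.7, 71.6 and 108 in MSC (1.59 ± 0.48, adjusted p = 0.0762). Its groups did not overlap, and it passed without JG sample 1 (2.01, adjusted p = 0.0188). The other Podxl probe set was at 99.8, 1013 and 227 in JG and at 21.5 to 24.0 in MSC (3.00, adjusted p = 0.0526 over all probe sets). That probe set has the higher mean intensity but the lower mean of log2 values, and with it as the choice Podxl passed (adjusted p = 0.0461 over genes). Of 10 podocyte markers, a list that holds Podxl itself, 1 passed higher in JG and 3 higher in MSC, beside 7.70% and 7.63% of all genes. Cdkn1c was the 1 higher in JG (2.58), and Synpo, Wt1 and Foxc2 were the 3 higher in MSC (-2.35, -3.88 and -4.03). In 7 of the 10 the difference was above 0, where 53.8% of all genes were. All JG samples lay above all MSC samples in 4, Podxl among them (20.2% of all genes), and below them in 3 (18.5%). The podocyte genes Ptpro (9.84, 494 and 117 in JG samples 1 to 3, 13.5 to 19.3 in MSC) and Nphs1 (10.9, 49.5 and 8.37, at most 4.33 in MSC) were highest in JG sample 2. Plce1 (138, 191 and 517 in JG samples 1 to 3) was highest in JG sample 3, and Cdkn1c (495, 58.5 and 141) in JG sample 1. Ptpro, Nphs1 and Plce1 did not pass (adjusted p = 0.248, 0.218 and 0.149). The part of podocyte genes in the Podxl values was not tested.

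The remaining junction and surface genes did not pass. Pecam1, the general endothelial adhesion molecule CD31, was at 8.86, 7.02 and 31.3 in JG and at 2.62, 4.23 and 2.18 in MSC (0.66 ± 0.33, adjusted p = 0.226). Its only probe set named here thus stayed under 16 on 5 of the 6 arrays. Icam2 was at 2.52, 3.98 and 88.1 in JG and at 5.46, 1.31 and 5.89 in MSC (0.75 ± 0.68, adjusted p = 0.493), a difference set by JG sample 3, without which it turned to -0.06. Clec14a, a C-type lectin of angiogenic endothelium, was at 18.9, 19.5 and 14.9 in JG and at 6.10, 5.96 and 9.95 in MSC (0.53 ± 0.22, adjusted p = 0.151). The other Clec14a probe set gave 0.35 (adjusted p = 0.706 over all probe sets). It was at 4.71, 3.51 and 54.5 in JG and at 6.78, 12.99 and 5.02 in MSC, so JG samples 1 and 2 lay below every MSC sample. Mmrn2, the matrix ligand of Clec14a and Cd93, was at 7.80, 31.9 and 111 in JG and at 23.1, 12.4 and 14.8 in MSC (0.69 ± 0.60, adjusted p = 0.472). Mmrn2 had overlapping groups, and its 4 probe sets gave -0.66, 0.54, 0.69 and 1.01.

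None of the genes of haemostasis and vascular tone passed. Vwf, the clotting factor stored in endothelial granules, was below 16 on every array, at 7.83, 2.25 and 10.3 in JG and at 4.41, 1.12 and 3.54 in MSC (0.25 ± 0.24, adjusted p = 0.529). Nos3, the endothelial nitric oxide synthase, was at 7.74, 37.8 and 19.0 in JG and at 4.81, 5.59 and 7.44 in MSC (0.70 ± 0.34, adjusted p = 0.214), and it passed without JG sample 1 (0.99, adjusted p = 0.0464). Every JG sample exceeded every MSC sample for Nos3, while the groups overlapped for Vwf. Plat, the tissue plasminogen activator, was at 421, 40.4 and 244 in JG and at 624, 671 and 513 in MSC (-1.73 ± 0.73, adjusted p = 0.164). All MSC samples were above all JG samples, with JG sample 1 closest to MSC, and Plat passed without that sample (-2.35, adjusted p = 0.0473). The second Plat probe set gave 0.31 (adjusted p = 0.846), with overlapping groups. Thbd, the thrombin receptor thrombomodulin, was at 2169, 492 and 1134 in JG and at 1899, 2123 and 1367 in MSC (-0.72 ± 0.54, adjusted p = 0.411). JG sample 1 was the highest of all 6 samples and JG sample 2 the lowest.

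The genes of membrane, traffic and secretion did not pass either. Ehd3, an endocytic recycling protein that is prominent in glomerular endothelium, was at 125, 758 and 473 in JG and at 58.3, 137 and 16.5 in MSC (2.39 ± 0.80, adjusted p = 0.0957). JG sample 1 lay just under MSC sample 2, and without JG sample 1 Ehd3 passed (3.10, adjusted p = 0.0240). The second Ehd3 probe set gave 0.98 (adjusted p = 0.445 over all probe sets), with JG sample 1 at 19.2, below every MSC sample. Plvap, which forms the diaphragms of endothelial fenestrae, was at 16.2, 199 and 29.4 in JG and at 3.95, 2.51 and 1.77 in MSC (1.86 ± 0.70, adjusted p = 0.125). JG sample 2 was far above the others, the groups did not overlap, and Plvap passed without JG sample 1 (2.40, adjusted p = 0.0449) or JG sample 2 (1.03, adjusted p = 0.0487). Esm1, a secreted proteoglycan of tip cells, was at 72.7, 21.4 and 43.4 in JG and at 6.71, 11.8 and 5.25 in MSC (1.29 ± 0.36, adjusted p = 0.0594). It did not overlap between groups and passed without JG sample 2 (1.61, adjusted p = 0.0201).

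Egfl7, a secreted endothelial matrix protein, was at 187, 130 and 87.8 in JG and at 91.6, 111 and 99.0 in MSC (0.32 ± 0.30, adjusted p = 0.509). Its 4 probe sets all lay above 0. The one with the highest mean linear intensity was at 43.7, 347 and 425 in JG and at 76.6, 44.5 and 41.5 in MSC (1.63, adjusted p = 0.218), and the one farthest out was at 13.6, 218 and 452 in JG and at 12.3 to 15.9 in MSC (2.33, adjusted p = 0.171). Egfl7 therefore gave no single answer, since JG sample 1 was the highest JG sample on the probe set used and the lowest on both of these. Rasip1, which guides vessel lumen formation, was at 229, 32.9 and 54.2 in JG and at 93.4, 145 and 92.7 in MSC (-0.39 ± 0.61, adjusted p = 0.698). Cav1, the caveolar coat protein, which many stromal cells also make, was at 53.1, 519 and 125 in JG and at 460, 327 and 457 in MSC (-1.30 ± 0.72, adjusted p = 0.271). JG sample 2 lay above every MSC sample and the other JG samples below them, and without JG sample 2 Cav1 was lower in JG (-2.11, adjusted p = 0.0226).

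The transcription factors went both ways. Lmo2, an adaptor of endothelial and blood-forming transcription complexes, was at 134, 84.0 and 37.2 in JG and at 2.57, 3.83 and 2.94 in MSC (2.28 ± 0.40, adjusted p = 0.0138). The groups stood apart, and the adjusted p was 0.0633, 0.0632 and 0.0646 without MSC samples 1, 2 and 3. Tal1, its partner in those complexes, was at 4.57, 20.7 and 8.66 in JG and at 1.02, 2.03 and 2.16 in MSC (0.58 ± 0.28, adjusted p = 0.213). Ets1 was at 168, 58.5 and 123.2 in JG and at 433, 380 and 376 in MSC (-1.73 ± 0.37, adjusted p = 0.0268). Every MSC sample exceeded every JG sample, but only this probe set, whose suffix s marks a sequence shared between transcripts, passed of the 4 for Ets1. The remaining 3 gave -1.06, -0.61 and -0.31. Ets1 missed the threshold when MSC samples 1, 2 and 3 were dropped singly (adjusted p = 0.104, 0.0989 and 0.0983), when JG sample 3 was (0.0622), and when it was read by a probe set without that suffix (-0.31, adjusted p = 0.507).

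Erg, an ETS factor restricted mostly to endothelium, was at 31.7, 21.5 and 69.8 in JG and at 57.3, 116 and 43.2 in MSC (-0.63 ± 0.44, adjusted p = 0.372). The dimmer Erg probe set gave -0.30 (adjusted p = 0.547 over all probe sets). Fli1, an ETS factor of endothelium and blood cells, was at 17.2, 50.8 and 12.4 in JG and at 42.2, 15.0 and 27.7 in MSC (-0.11 ± 0.42, adjusted p = 0.883), and its other probe set gave 0.41. Neither Erg nor Fli1 separated the groups. Prox1, the master factor of lymphatic endothelium, was at 34.5, 98.2 and 46.6 in JG and at 19.7, 25.4 and 14.4 in MSC (1.00 ± 0.36, adjusted p = 0.112). All JG samples were above all MSC samples, and a dimmer Prox1 probe set at 53.2, 66.4 and 37.3 in JG and at 14.2, 3.78 and 4.70 in MSC passed (1.54, adjusted p = 0.0213 over all probe sets). Without JG sample 1 the first Prox1 probe set passed too (1.25, adjusted p = 0.0440). Lyve1, the lymphatic hyaluronan receptor, which some macrophages also carry, was at 16.4, 28.8 and 25.8 in JG and at 14.6, 9.62 and 8.93 in MSC (0.54 ± 0.24, adjusted p = 0.181). The dimmer Lyve1 probe set gave 0.46 (adjusted p = 0.403 over all probe sets), with overlapping groups.

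**Figure D3:**
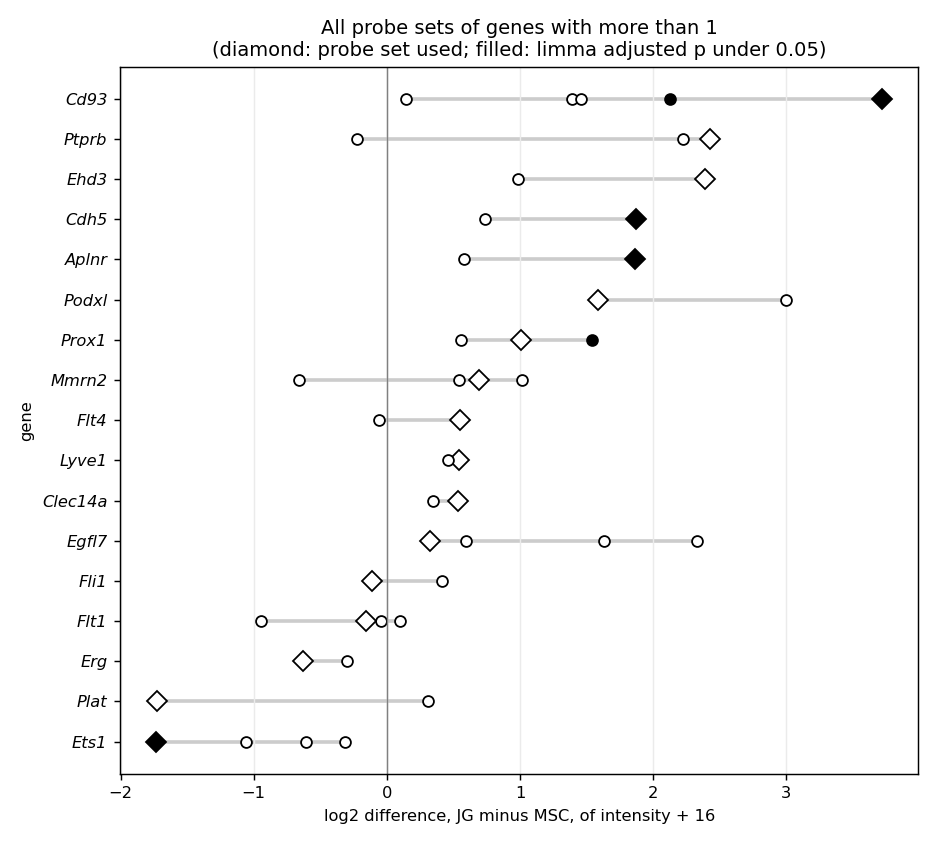
Log2 difference, JG minus MSC, of every probe set of the 17 genes read by more than 1, with the probe set used as a diamond and filled symbols for an adjusted p under 0.05 over all probe sets. Flt1, Flt4, Fli1, Mmrn2, Plat and Ptprb have probe sets on both sides of 0.

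Probe sets of the same gene often disagreed in size. The 35 genes had 65 probe sets, 18 genes with 1 and 17 with more. Of the 65, 10 were higher in JG (5.40% of all 34945 probe sets were) and 1 in MSC (7.47% were), and 0 genes had probe sets that passed in opposite directions. For 6 genes, which were Flt1, Flt4, Fli1, Mmrn2, Plat and Ptprb, probe sets had opposite signs without passing. Among the 8 genes higher in JG, Tek, Esam, Emcn, Robo4 and Lmo2 have only 1 probe set, so their values have no second reading on the array.

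The 3 JG samples did not rank alike. Sample 1 was the highest of the 3 for 9 genes, sample 2 for 14 and sample 3 for 12, beside 36.9%, 32.1% and 31.0% of all genes. Of the 10 junction and surface genes 7 were highest in sample 3, which were Cdh5, Emcn, Robo4, Pecam1, Icam2, Mmrn2 and Podxl. Sample 2 was highest for Kdr, Flt1, Tie1, S1pr1, Nos3, Plvap, Ehd3 and Cav1 among others, and it was the lowest of the JG samples for Tek, Esam, Cdh5 and Aplnr. These orders are of the probe set used for each gene. Another Flt1 probe set (21.1, 38.5 and 153 in JG samples 1 to 3) and the other Ehd3 probe set (19.2, 163 and 257) were highest in sample 3. The other Podxl probe set (99.8, 1013 and 227) was highest in sample 2, while the other Cdh5 and Aplnr probe sets kept the order. With 1 array a sample, these orders have no replicate and are a description.

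Of 23 measured vascular ligands and guidance factors 2 were higher in JG (beside 7.70% of all genes) and 5 in MSC (beside 7.63%), with a list median of -0.09. The count higher in JG is near the share of all genes. The lymphatic growth factor gene Vegfd, a ligand of Flt4, was at 480, 925 and 1354 in JG and at 147, 186 and 75.9 in MSC (2.57 ± 0.48, adjusted p = 0.0169). Vegfc, the other Flt4 ligand, was at 30.5, 28.9 and 16.01 in JG and at 214, 324 and 275 in MSC (-2.80 ± 0.28, adjusted p = 0.00150). These ligands of 1 receptor thus went opposite ways, each with groups that did not overlap. Ccbe1, a secreted cofactor that helps activate Vegfc, was at 68.3, 66.9 and 18.6 in JG and at 328, 273 and 292 in MSC (-2.33 ± 0.40, adjusted p = 0.0125).

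Of the Tek ligands, Angpt4 was at 1.48, 24.2 and 16.9 in JG and at 353, 465 and 665 in MSC (-4.12 ± 0.40, adjusted p = 0.00150). Angpt1, the agonist that mural cells supply, was at 148, 141 and 21.4 in JG and at 83.1, 71.4 and 134 in MSC (-0.14, adjusted p = 0.901), and Angpt2 was at 63.2, 89.6 and 44.0 and at 49.9, 41.3 and 30.4 (0.51, adjusted p = 0.294). Neither separated the groups. Vegfa was at 220, 889 and 479 in JG and at 310, 229 and 177 in MSC (0.92, adjusted p = 0.272), and Vegfb at 136, 47.6 and 36.4 and at 84.1, 97.4 and 143 (-0.61, adjusted p = 0.400). Pgf, a Flt1 ligand, was at 34.5, 183 and 78.8 in JG and at 23.1, 22.0 and 10.6 in MSC (1.53, adjusted p = 0.0974). Of the Aplnr ligands Apela was at 168, 35.6 and 165 in JG and at 30.0, 14.7 and 15.98 in MSC (1.75, adjusted p = 0.0792), with the same low JG sample 2 as its receptor, and Apln was at 12.3, 21.4 and 102 and at 7.76, 14.1 and 3.66 (1.05, adjusted p = 0.248).

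**Figure D4:**
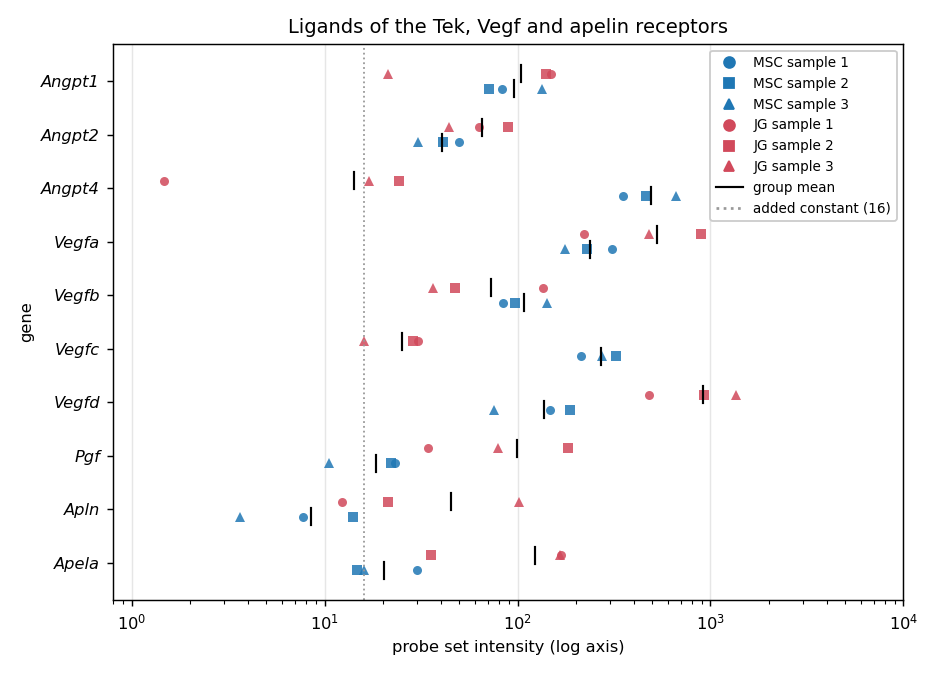
Probe set intensity (log axis) of 10 ligands of the Tek, Vegf and apelin receptors in the 3 MSC and 3 JG samples, with a black tick at each group mean and a dotted line at 16. Vegfd lies higher in JG, Vegfc and Angpt4 lie higher in MSC, and Angpt1, Angpt2, Vegfa and Vegfb overlap.

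Of 48 other endothelial genes 6 were higher in JG and 3 in MSC, beside 7.70% and 7.63% of all genes, with a list median of 0.35. The 6 were Cd34 (961, 176 and 375 in JG, at most 10.9 in MSC, 4.21 ± 0.59, adjusted p = 0.00613), Tmem204, Adgrl4, the tight junction gene Cldn5, Myct1 and the flow-regulated factor gene Klf2. Adgrl4, an adhesion G protein-coupled receptor of endothelium, was at 129, 27.8 and 139 in JG and at most 2.82 in MSC (2.49 ± 0.51, adjusted p = 0.0237). Tmem204 was at 101, 423 and 583 in JG and at 29.0, 46.4 and 31.0 in MSC (2.62 ± 0.62, adjusted p = 0.0369). Nrp2, the coreceptor of Vegfc, was higher in MSC at 392, 243 and 586 against 52.4, 118 and 53.5 (-2.22 ± 0.43, adjusted p = 0.0189), as were Cav2 and Jam3. Of 4 other lymphatic genes, Reln and Itga9 were higher in JG and Pdpn in MSC, beside 7.70% and 7.63% of all genes. Pdpn was at 1363, 1280 and 1512 in JG and at 4329, 3925 and 5088 in MSC (-1.67 ± 0.23, adjusted p = 0.00555). Cxcl12, a chemokine also made by stroma, Efnb2 and the semaphorin gene Sema3g completed the ligands that passed, with differences of -4.84, -2.18 and 2.85. Over all 75 genes of these lists, dropping MSC sample 1, 2 or 3 changed the 10 higher in JG to 2, 4 or 2 and the 9 higher in MSC to 5, 5 or 4. Dropping JG sample 1 gave 19 higher in JG, and dropping JG sample 3 gave 4.

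Markers of other cell types differed between the same samples, and their part in the endothelial values was not tested. The gene of the MSC sort antigen, Cd44, was higher in MSC (-2.68, adjusted p = 0.000832). A list of 8 renin cell genes does not come from the labels, and its genes are not specific to these cells. Of these, Rgs5, Crip1 and Ace were higher in JG, while Foxd1 and Gjc1 were higher in MSC. The renin gene was not analysed here. The summed intensity of 12 proximal tubule markers ran from 30480 to 39080 in JG and from 463 to 718 in MSC, with 11 higher in JG, and all 8 of loop, distal tubule and collecting duct were higher in JG (summed 10050 to 16700, against 41.7 to 123.4). Of 15 macrophage and leukocyte markers, of cells that also express Cd93, Lyve1 and Fli1, 6 were higher in JG, among them Laptm5, Csf1r and C1qb. The other 9 did not pass, among them C1qa (0.45), C1qc (0.41), Adgre1 (0.30), Cd68 (-0.19) and Cd14 (-0.40). The sum of the 15 ran from 2287 to 4984 in JG and from 189 to 736 in MSC. Of 8 platelet markers, of cells that also express Esam, Pecam1 and Vwf, Itga2b was higher in JG and Itgb3 in MSC (sums of 398 to 602 and of 1024 to 1449), and Pf4 was at most 5.32 on any array. Of 6 red cell markers, of a lineage that also uses Tal1 and Lmo2, Slc4a1 was higher in JG and the other 5 did not pass. The red cell sum ran from 790 to 2401 in JG and from 2093 to 3270 in MSC. Hba-a2 made up most of that sum, at 1990, 806 and 472 in JG and at 2049, 2876 and 3237 in MSC. Hba-a1 was at most 3.08 on any array. Podocyte markers summed to 1214 to 2714 in JG and to 3915 to 5849 in MSC. Of 12 mural and smooth muscle markers Rgs5 and Myh11 were higher in JG and Pdgfrb, Acta2, Cnn1 and Tagln in MSC (sums of 3546 to 4846 in JG and of 16740 to 21590 in MSC). Of 10 fibroblast markers Dpt, Pi16 and Clec3b were higher in JG and 0 in MSC (sums of 13390 to 38350 and of 20650 to 28690).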

How the data were processed

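Affymetrix arrays of total RNA from 3 MSC and 3 JG samples were analysed. The authors deposited a linear intensity for each of 45037 probe sets and array. The sources used here do not give how probes were summarised, corrected for background or scaled. Medians of the arrays ran from 27.3 to 36.5, values stop at a floor of 1, and no detection calls were used, so a low value is not absence.

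Probe sets were named by the platform annotation: 34945 name 1 gene, 932 several and 9160 none, and 34741 had a gene identifier in a RefSeq table. Each gene was represented by the probe set with the highest mean of log2 of the intensity plus 16, and no filter was used. The 6 samples entered a single limma fit (version 3.58.1, lmFit then eBayes, under R 4.3.3) with group as its one term. P-values were adjusted by Benjamini and Hochberg's method over 18193 genes, or over 34945 probe sets where stated. The pseudocount understates changes of dim genes. The fit was tested on simulated data. Levels are not compared between genes, since probes differ, and the number of arrays limits the precision. Correlations of arrays, across genes, were 0.971 to 0.975 within MSC, 0.807 to 0.887 within JG and 0.687 to 0.814 between groups, and no arrays were identical. Figures were drawn with matplotlib 3.10.9.

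The genes and lists were chosen with earlier results of these data known. All 35 genes are described, and those that passed, that did not overlap with a difference of at least 1, or whose probe sets have opposite signs were to be given sample by sample. Of the other vascular lists, up to 8 that passed with the largest difference and the ligands of Tek, Kdr, Flt1, Flt4 and Aplnr were named; others that passed, and genes of cell type lists beyond the brightest, were named after their values were seen. Alternatives were pseudocounts of 1 and 64, quantile normalization, median centring, a filter on dim genes, the mean of probe sets, no probe sets of suffix s or x, a trended robust prior, the replicate number as a block and each sample left out. Choosing the brightest probe set by mean intensity was added after seeing the data.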

Additional observations from a re-analysis of the deposited data

How the results depend on the processing

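All 35 genes kept their direction under quantile normalization and median centring, and the counts of genes higher in JG were 8 and 9. Of 535 values of single genes under alternatives, 463 kept direction and side of the threshold, 35 lost a call, 24 gained one and 13 changed sign. The count of 8 higher in JG was 13 with a pseudocount of 1 and 6 with 64, where Cdh5 and Emcn did not pass (adjusted p = 0.0639 and 0.0760). It was 1 with genes under the median left out (10 of the 35 then remained in the test) and ran from 2 to 14 with 1 sample left out. The 1 gene higher in MSC became 0 with the mean of probe sets or without probe sets of suffix s or x, and 0 to 2 with 1 sample left out. The 10 other vascular genes higher in JG were 4 with a pseudocount of 64 and 2 to 19 with 1 sample left out, and the 9 higher in MSC were 4 to 10. Of probe sets, the 10 higher in JG were 16 and 6 with pseudocounts of 1 and 64 and 3 to 21 with 1 sample left out, and the 1 higher in MSC was 0 with a pseudocount of 1 or the trended robust prior and 0 to 3 with 1 sample left out. Over all genes, the 1401 higher in JG and 1389 higher in MSC ran from 719 to 2551 and from 411 to 2643. A fit on 5 samples has fewer degrees of freedom. The cause of the other changes was not tested.

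Sign changes, all of differences that did not pass, were these. Flt1 was 0.045 with a pseudocount of 64, and with 1 sample left out it ran from -1.11 to 0.57 (above 0 without JG samples 1 and 3). Fli1 was 0.152 with the mean of probe sets and ran from -0.485 to 0.134 (above 0 without MSC sample 1 and JG samples 1 and 3). Icam2 ran from -0.064 to 1.181 and Rasip1 from -1.082 to 0.081. S1pr1 was 0.037 with a pseudocount of 64 and ran from -0.504 to 0.476 (above 0 without MSC samples 1 and 3 and JG sample 1).

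With the replicate block, the counts higher in JG and in MSC were 5 and 0 for the endothelial genes, 4 and 6 for the other vascular genes, 6 and 0 for their probe sets and 903 and 710 for all genes. The labels do not say whether the numbers pair the samples. Deviations of same-numbered samples correlated at -0.20, -0.01 and -0.01 across genes, and no sample correlated best with its own number. With 3 samples a group, these correlations cannot exclude a pairing. A dim gene is limited by the floor and the added constant: 18 of the 35 genes lay under 16 in every MSC sample.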

Other observations

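Caveolae are flask-shaped pits of the plasma membrane, abundant in endothelium and in many stromal cells, that need caveolins and cavins. Beside Cav1, the caveolin gene Cav2 was at 65.9, 59.2 and 49.7 in JG samples 1 to 3 and at 175, 148 and 147 in MSC samples 1 to 3, and was higher in MSC (-1.22 ± 0.22, limma adjusted p = 0.0161). The coat gene Cavin1 was at 959, 324 and 805 in JG and at 1298, 1193 and 1262 in MSC, with all JG samples below all MSC samples, and did not pass (-0.97 ± 0.42, adjusted p = 0.175). Cavin2 went the other way, at 2537, 613 and 1708 in JG and at 893, 864 and 226 in MSC, with overlapping groups (1.28 ± 0.72, adjusted p = 0.272). JG sample 2 was the lowest JG sample for both cavins and the highest for Cav1.

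Among other endothelial genes that did not pass, 5 are given here, chosen after their values were seen. Gja5, the connexin 40 gene of arterial endothelium and renin cells, was at 3.98, 76.7 and 42.0 in JG and at 2.16, 1.54 and 7.94 in MSC (1.27 ± 0.57, adjusted p = 0.180). Gja4, the connexin 37 gene, was at 14.4, 2.98 and 9.67 in JG and at 21.7, 20.7 and 21.3 in MSC (-0.60 ± 0.26, adjusted p = 0.166). Sox18 was at 27.3, 99.9 and 43.9 in JG and at 14.4, 11.3 and 11.2 in MSC (1.25 ± 0.39, adjusted p = 0.0812), while Sox17 gave 0.20 (adjusted p = 0.599) and Sox7 gave -0.19 (adjusted p = 0.584).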
